A study of Mus musculus with 12 samples.

Results

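The 9 genes described here encode the core of the Notch signaling pathway as a receiving cell uses it: the receptors Notch1, Notch2, Notch3 and Notch4, the metalloprotease Adam10, the glycosyltransferase Lfng, the DNA-binding factor Rbpj, and its coactivators Maml1 and Maml2. They were taken from the count table by gene name, 9 of 32285 genes, and all 9 were among the 13367 genes that passed the filter on low counts. RNA of sorted bone marrow (BM) progenitors from wild-type C57BL6/J mice was profiled at 1 month (1MO) and 3 months (3MO) of age. At each age, 3 libraries were made from Ly6d- common lymphoid progenitors (CLPs) and 3 from Flk2+ multipotent progenitors (MPPs), the upstream population, for 12 libraries in all. All groups share the strain and genotype and carry no transgene, and the cells were purified by flow cytometry, so each library holds whatever the gate admitted.

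Notch receptors are surface proteins that are cut after they bind a Delta-like or Jagged ligand on a neighboring cell. Adam10 makes the first cut after binding and gamma-secretase the next, which frees the intracellular domain to enter the nucleus, where it joins Rbpj and a Mastermind-like protein to switch on target genes. Notch1 is the receptor known to commit blood progenitors to the T-cell lineage, and Fringe enzymes such as Lfng add sugars that change which ligands a receptor answers to.

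The study asked whether Notch signaling in these BM progenitors changes in early adult life. The paper reports lower Notch pathway enrichment and lower Notch target expression with age in CLPs, but not in MPPs. In a Notch reporter strain, low-signal CLPs were more frequent at the older age, though the frequency of signaling cells did not decline significantly. RNA levels of the 9 members do not measure signaling activity, which was not tested here. Each member was compared between ages within each cell type, and between the cell types at each age. Notch1 was higher in CLPs than in MPPs at both ages and supplied most of the receptor transcripts there, whereas in MPPs the order of Notch1 and Notch2 depended on the gene length used. None of the 9 members passed the test for age in either cell type. Notch3 and Notch4 had 0 to 153 counts a library, far fewer than the other receptors.

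The estimated counts of a library summed to between 8889083 and 20677785 (median 13208993). The CLP libraries stood apart from the MPP libraries by CLP markers, whose summed level (Il7r, Dntt, Rag1, Rag2, Ighm and Ebf1) was 3519 to 4554 CPM (counts scaled to a common library size) in CLPs and 608 to 1016 CPM in MPPs. The summed level of 7 erythroid genes was highest in replicate 3 of each group, at 82.4 to 132 CPM against 9.77 to 27.5 CPM in the other libraries, and its part in the results was not tested. Levels below are CPM after normalization by the trimmed mean of M values (TMM), and a gene is called changed where its edgeR p, from the quasi-likelihood test with Benjamini-Hochberg adjustment over all 13367 genes, was under 0.05. The labels number the replicates and name no animals, so p-values measure the spread between these libraries. Whether a CLP and an MPP library of equal age and number came from one mouse is not stated. In bulk RNA, fewer cells that express a gene and less of its RNA per cell cannot be told apart.

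Notch1 lies on chr2:26457903-26516663, minus strand (GRCm38). In CLPs, it stood at 1584, 1399 and 1491 CPM in the 1MO libraries and at 1268, 1647 and 1352 CPM in the 3MO libraries. In MPPs, it stood at 601, 693 and 504 CPM at 1MO and at 675, 693 and 502 CPM at 3MO. Every CLP library was above every MPP library, and within each cell type the ages overlapped. The mean in CLPs was 1491 ± 92.6 CPM (SD, n = 3) at 1MO and 1422 ± 199 CPM at 3MO, and in MPPs 600 ± 94.6 CPM and 623 ± 106 CPM.

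Notch1 was 2.49-fold higher in CLPs than in MPPs at 1MO (95% interval 1.94 to 3.19; log2 fold change 1.31, SE 0.17; edgeR adjusted p = 0.000182). At 3MO it was 2.28-fold higher (1.78 to 2.93; log2 fold change 1.19, SE 0.17; edgeR adjusted p = 0.000450). It was the 1 member of 9 called at each age. Of all tested genes, 5.38% were called between the cell types at 1MO and 6.07% at 3MO, and 2.57% and 2.73% were called higher in CLPs. Notch1 was called in each of the 12 fits that left out a library and in all 7 other fits at both ages.

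For age, the log2 fold change of Notch1 (3MO over 1MO) was -0.07 in CLPs (95% interval -0.42 to 0.29) and 0.06 in MPPs (-0.30 to 0.41). The difference between these age effects was -0.12 (-0.63 to 0.38; edgeR adjusted p = 1.00). The interval in CLPs spanned 0.746-fold to 1.22-fold.

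Notch2 lies on chr3:98013527-98150361, plus strand. It stood at 554, 551 and 493 CPM in 1MO CLPs and at 655, 591 and 639 CPM in 3MO CLPs, so the 3MO libraries were all above the 1MO libraries. In MPPs it stood at 611, 692 and 525 CPM at 1MO and at 613, 741 and 500 CPM at 3MO, with full overlap. The age difference in CLPs was 1.18-fold (0.930 to 1.495; log2 fold change 0.24, SE 0.16; edgeR adjusted p = 0.909) and was not called. The groups of 2 of the 9 members did not overlap between the ages in CLPs, Notch2 higher and Maml1 lower at 3MO, beside 10.6% of all tested genes.

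Between the cell types, Notch2 had a log2 fold change (CLPs over MPPs) of -0.19 at 1MO (95% interval -0.54 to 0.15) and of 0.02 at 3MO (-0.32 to 0.37). The groups overlapped at both ages. The intervals of Notch1, 0.95 to 1.68 and 0.83 to 1.55, lay wholly above those of Notch2.

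**Figure D1:**
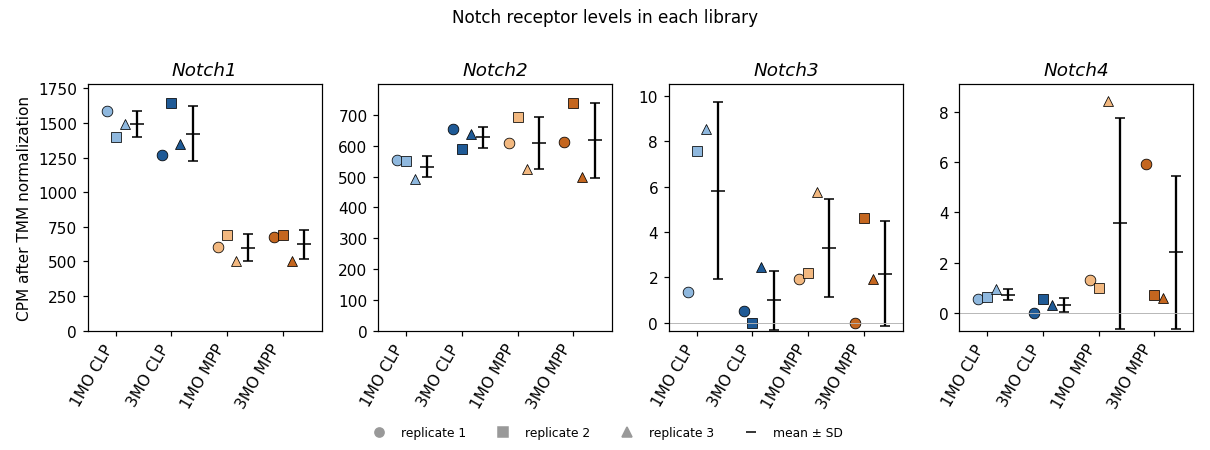
Level of each Notch receptor (CPM after TMM normalization, linear axes that differ between panels) in each of the 12 libraries, by group. Symbols give the replicate number and black bars the mean ± SD of 3 libraries. Notch1 was at 1268 CPM or more in all 6 CLP libraries and at 693 CPM or less in all 6 MPP libraries, Notch2 overlapped between the cell types, and no library had over 8.57 CPM of Notch3 or over 8.44 CPM of Notch4.

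The sequences around the transcription starts of the receptors that carry these levels are given for context, as RefSeq places them on GRCm38.p6, read on the strand of the gene. The 300-base window of Notch1 is chr2:26503773-26504072 (minus strand) and that of Notch2 is chr3:98013288-98013587 (plus strand). The window of Lfng at chr5:140607091-140607390 (plus strand), is shown because it holds letters that Rbpj is known to bind. Capitals mark TGGGAA or its reverse complement TTCCCA.
Notch1: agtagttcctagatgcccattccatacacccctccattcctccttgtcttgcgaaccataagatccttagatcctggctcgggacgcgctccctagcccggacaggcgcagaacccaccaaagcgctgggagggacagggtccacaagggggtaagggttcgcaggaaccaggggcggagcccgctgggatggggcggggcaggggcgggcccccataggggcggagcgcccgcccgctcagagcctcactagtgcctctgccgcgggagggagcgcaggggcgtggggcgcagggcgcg
Notch2: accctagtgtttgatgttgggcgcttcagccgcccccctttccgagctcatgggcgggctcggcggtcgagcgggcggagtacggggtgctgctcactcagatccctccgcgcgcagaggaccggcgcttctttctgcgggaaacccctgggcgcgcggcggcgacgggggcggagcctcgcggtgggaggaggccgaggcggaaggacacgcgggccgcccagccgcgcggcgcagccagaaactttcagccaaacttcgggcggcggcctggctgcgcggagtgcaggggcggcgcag
Lfng: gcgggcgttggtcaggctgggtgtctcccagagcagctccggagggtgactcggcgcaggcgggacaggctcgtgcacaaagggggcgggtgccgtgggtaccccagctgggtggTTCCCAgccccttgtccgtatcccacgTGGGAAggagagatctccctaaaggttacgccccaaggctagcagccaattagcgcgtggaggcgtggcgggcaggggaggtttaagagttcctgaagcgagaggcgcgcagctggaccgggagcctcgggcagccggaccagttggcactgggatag
RefSeq windows were found for 9 of 9 members, with 11 windows in all since Rbpj and Maml2 have 2 each. TGGGAA or TTCCCA was found in 4 of these 11 windows, of 3 of the 9 members (Lfng, Maml2 and Rbpj), and in 25.6% of all 32851 windows. The longer GTGGGAA or TTCCCAC, which contains the shorter motif, was found in 1 of the 11 windows, that of Lfng, and in 6.38% of all windows. Neither was found in the windows of Notch1 and Notch2. These matches describe letters in a window and not binding in these cells.

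Levels of different receptors can be set side by side only per length. Divided by the bases of the union of annotated exons in kilobases (kb), Notch1 stood at 105 ± 6.50 CPM per kb in 1MO CLPs and 99.9 ± 14.0 CPM per kb in 3MO CLPs, against 49.4 ± 3.18 and 58.3 ± 3.12 CPM per kb for Notch2. In MPPs, Notch1 stood at 42.1 ± 6.64 and 43.8 ± 7.42 CPM per kb, and Notch2 at 56.5 ± 7.75 and 57.3 ± 11.2 CPM per kb (SD, n = 3). The 4 receptors summed to 155 ± 6.88 and 158 ± 10.8 CPM per kb in CLPs and to 99.5 ± 13.7 and 102 ± 18.3 CPM per kb in MPPs, at 1MO and 3MO.

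Expressed as its share of the 4 receptors per kb, Notch1 made up 68.3%, 65.3% and 69.1% in the 1MO CLP libraries and 59.4%, 67.8% and 61.4% in the 3MO CLP libraries. In MPPs it made up 42.5%, 43.0% and 41.2% at 1MO and 45.2%, 41.2% and 43.0% at 3MO. Shares of CLPs and MPPs did not overlap, and a share within a library does not depend on scaling between libraries. The mean share was 22.5 percentage points higher in CLPs (exact permutation test, two-sided, cell type labels permuted within each age, p = 0.005, the smallest that the 400 arrangements can give). With same-numbered libraries taken as pairs, p was 0.03125 (exact sign-flip permutation), also the smallest possible.

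Notch2 made up nearly all of the rest. Its share was 31.9 ± 1.93% in 1MO CLPs, 37.0 ± 4.37% in 3MO CLPs, 56.8 ± 0.22% in 1MO MPPs and 56.3 ± 2.05% in 3MO MPPs (SD, n = 3). Notch3 reached at most 0.84% and Notch4 at most 1.22% of the receptor transcripts of any library.

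The mean Notch1 share was 4.67 percentage points lower at 3MO than at 1MO in CLPs (p = 0.2, exact and two-sided) and 0.90 points higher in MPPs (p = 0.4, exact and two-sided), and 0.1 is the smallest p that 3 against 3 libraries allow. Leaving out 1 library moved the CLP value to between -7.14 points (without 3MO CLP replicate 2) and -2.93 points (without 3MO CLP replicate 1). The 3MO CLP library with 67.8% lay among the 1MO libraries, and the other two lay below them. The age effects of the cell types differed by -5.57 points (exact permutation test with age labels permuted within each cell type, two-sided, p = 0.115), a test added after the data were seen. Without 3MO CLP replicate 2 this difference was -8.04 points (exact permutation p = 0.035), so it rests on which 3MO CLP libraries are kept.

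Which receptor was higher in MPPs depended on the length used. With the longest transcript in place of the union of exons, Notch1 made up 51.6 ± 0.98% in 1MO MPPs and 52.6 ± 1.97% in 3MO MPPs, and Notch2 47.5 ± 0.21% and 47.0 ± 2.08%. In CLPs, Notch1 was the higher receptor with either length, at 75.3 ± 1.68% and 71.2 ± 3.83% with the longest transcript. The difference between the cell types was 21.1 points on that scale (exact permutation p = 0.005).

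**Figure D2:**
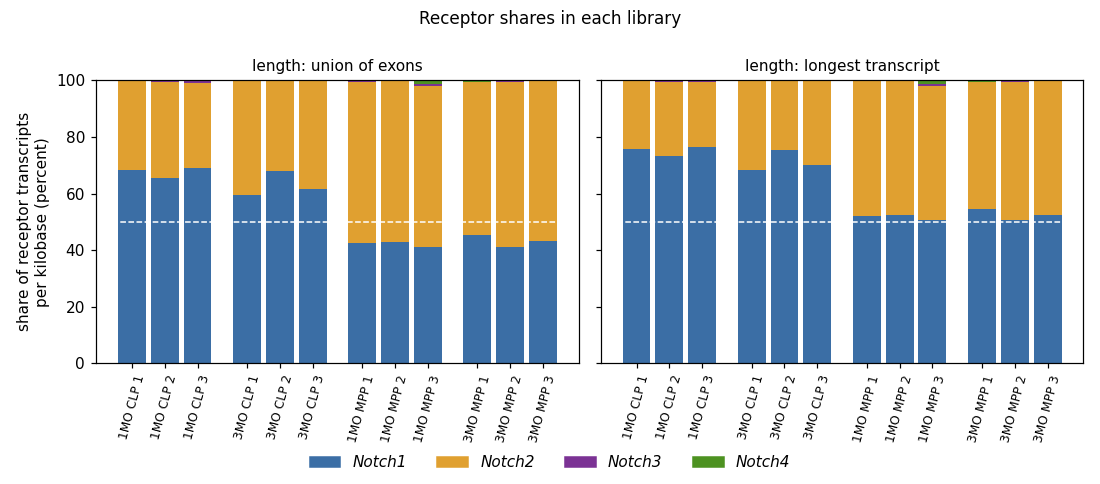
Share of each Notch receptor in the receptor transcripts per kb (percent, stacked bars) in each of the 12 libraries, with the union of exons (left) or the longest transcript (right) as length and a dashed line at 50%. Notch1 was above the line in all 6 CLP libraries in both panels, and in MPPs it was below the line on the left and above it on the right.

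Notch3, on chr17:32120820-32166852 (minus strand), and Notch4, on chr17:34564268-34588503 (plus strand), are known for their roles in the smooth muscle of vessels and in endothelium. Notch3 had 15, 153 and 135 estimated counts in 1MO CLPs and 5, 0 and 31 in 3MO CLPs. In MPPs it had 24, 20 and 96 counts at 1MO and 0, 64 and 27 at 3MO. In CPM, Notch3 was 5.82 ± 3.91 in 1MO CLPs and 0.99 ± 1.29 in 3MO CLPs, and the lowest 1MO library, at 1.35 CPM, lay below the highest 3MO library, at 2.45 CPM.

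The log2 fold change of Notch3 with age in CLPs was -2.57 (95% interval -5.52 to 0.39; SE 1.39; edgeR adjusted p = 0.891), which was not called. Depending on which library was left out, it ranged from -4.65 to -1.96. The summed level of 12 genes of mural cells and bone stroma moved in the same direction, from 677, 317 and 299 CPM in 1MO CLPs to 93.0 to 121 CPM in 3MO CLPs. The 1MO CLP library with the highest sum had the lowest Notch3. Of the 12 genes, 4 were tested. The collagen genes Col1a1 (log2 fold change -8.75, edgeR adjusted p = 0.0337) and Col1a2 (-7.52, edgeR adjusted p = 0.00378) were called lower with age in CLPs. In the 3MO CLP libraries, Col1a1 stood at 1.92, 0 and 0 CPM and Col1a2 at 0, 0 and 1.66 CPM. The size of each fitted fold thus depends on the 1 library above 0 at 3MO. Pdgfrb, also a mural marker, was at 51.7 to 121 CPM in every library, Acta2 and Cspg4 were at 0.84 CPM or less, and Rgs5, Kcnj8 and Myh11 were at 0 in all 12 libraries. The part of such cells in the Notch3 levels was not tested.

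Notch4 had 6, 13 and 15 counts in 1MO CLPs and 0, 10 and 4 in 3MO CLPs. In MPPs it had 16, 9 and 140 counts at 1MO and 56, 10 and 8 at 3MO. One MPP library of each age was far above the other two, at 8.44 CPM (1MO replicate 3) and 5.92 CPM (3MO replicate 1). Every MPP library was above every CLP library of its age.

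The log2 fold change of Notch4 (CLPs over MPPs) was -2.32 at 1MO (SE 1.30; edgeR adjusted p = 0.455) and -2.94 at 3MO (SE 1.36; edgeR adjusted p = 0.253), and neither was called. Leaving out 1 library moved it to between -2.76 and -0.67 at 1MO and to between -3.77 and -1.07 at 3MO. The summed level of 10 endothelial genes was 128 to 157 CPM in 1MO CLPs, 105 to 136 CPM in 3MO CLPs, 207 to 301 CPM in 1MO MPPs and 153 to 210 CPM in 3MO MPPs. It was highest in the 1MO MPP library with the most Notch4 and lowest among MPPs in the 3MO library with the most Notch4, several of these genes are also known in early blood progenitors, and its part in the Notch4 levels was not tested.

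Adam10, on chr9:70678997-70780229 (plus strand), cuts the ligand-bound receptor. It stood at 257, 281 and 250 CPM in 1MO CLPs and at 255, 268 and 248 CPM in 3MO CLPs. In MPPs it stood at 300, 310 and 293 CPM at 1MO and at 391, 315 and 284 CPM at 3MO. All CLP libraries were below all MPP libraries of both ages.

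The differences of Adam10 were small and were not called. The log2 fold change (CLPs over MPPs) was -0.20 at 1MO (95% interval -0.51 to 0.11; edgeR adjusted p = 0.635) and -0.36 at 3MO (-0.67 to -0.05; edgeR adjusted p = 0.187). With age it was -0.03 in CLPs (-0.34 to 0.28) and 0.13 in MPPs (-0.18 to 0.44).

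Lfng, on chr5:140607320-140615545 (plus strand), lengthens the fucose on the receptor's extracellular domain. It stood at 30.2, 61.1 and 48.9 CPM in 1MO CLPs and at 24.5, 46.8 and 30.4 CPM in 3MO CLPs. In MPPs it stood at 29.1, 40.5 and 48.6 CPM at 1MO and at 32.0, 50.7 and 39.5 CPM at 3MO. Replicate 1 was the lowest library of each of the 4 groups, and the groups overlapped in every comparison. The log2 fold change of Lfng with age was -0.46 in CLPs (95% interval -1.12 to 0.20; edgeR adjusted p = 0.909) and 0.05 in MPPs (-0.61 to 0.71).

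Rbpj, on chr5:53466152-53657362 (plus strand), is the factor through which all 4 receptors act on DNA. It stood at 160, 211 and 166 CPM in 1MO CLPs, 147, 172 and 196 CPM in 3MO CLPs, 152, 180 and 134 CPM in 1MO MPPs, and 173, 157 and 168 CPM in 3MO MPPs. All groups overlapped. Its log2 fold change was -0.06 with age in CLPs (95% interval -0.42 to 0.30), 0.10 with age in MPPs (-0.27 to 0.46), and 0.21 (-0.16 to 0.57) and 0.05 (-0.31 to 0.41) between the cell types at 1MO and 3MO.

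Maml1, on chr11:50255634-50292311 (minus strand), and Maml2, on chr9:13297957-13709388 (plus strand), bridge the Notch and Rbpj complex to histone acetyltransferases. Maml1 stood at 91.0, 78.3 and 91.3 CPM in 1MO CLPs and at 77.4, 65.7 and 69.8 CPM in 3MO CLPs. In MPPs it stood at 61.0, 62.9 and 55.7 CPM at 1MO and at 42.8, 62.0 and 53.6 CPM at 3MO. The groups fell in order without overlap from 1MO CLPs to 3MO CLPs to the MPPs, which overlapped each other.

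Maml1 had a log2 fold change (CLPs over MPPs) of 0.54 at 1MO (95% interval 0.15 to 0.92; edgeR adjusted p = 0.113), which DESeq2 called (log2 fold change 0.55, adjusted p = 0.0381, among 8.81% of genes called). At 3MO it was 0.42 (0.04 to 0.81; edgeR adjusted p = 0.210). With age in CLPs it was -0.29 (-0.68 to 0.09; edgeR adjusted p = 0.899). An antisense gene, Gm26542, overlaps exons of Maml1, with 482.5 counts summed over the 12 libraries, and the library kit keeps the strand.

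Maml2 stood at 64.4, 46.6 and 49.7 CPM in 1MO CLPs, 47.0, 59.3 and 44.4 CPM in 3MO CLPs, 65.1, 63.0 and 69.8 CPM in 1MO MPPs, and 57.9, 69.6 and 44.0 CPM in 3MO MPPs. The groups overlapped in every comparison. Its log2 fold change was -0.09 with age in CLPs (95% interval -0.54 to 0.36) and -0.21 in MPPs (-0.66 to 0.25).

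**Figure D3:**
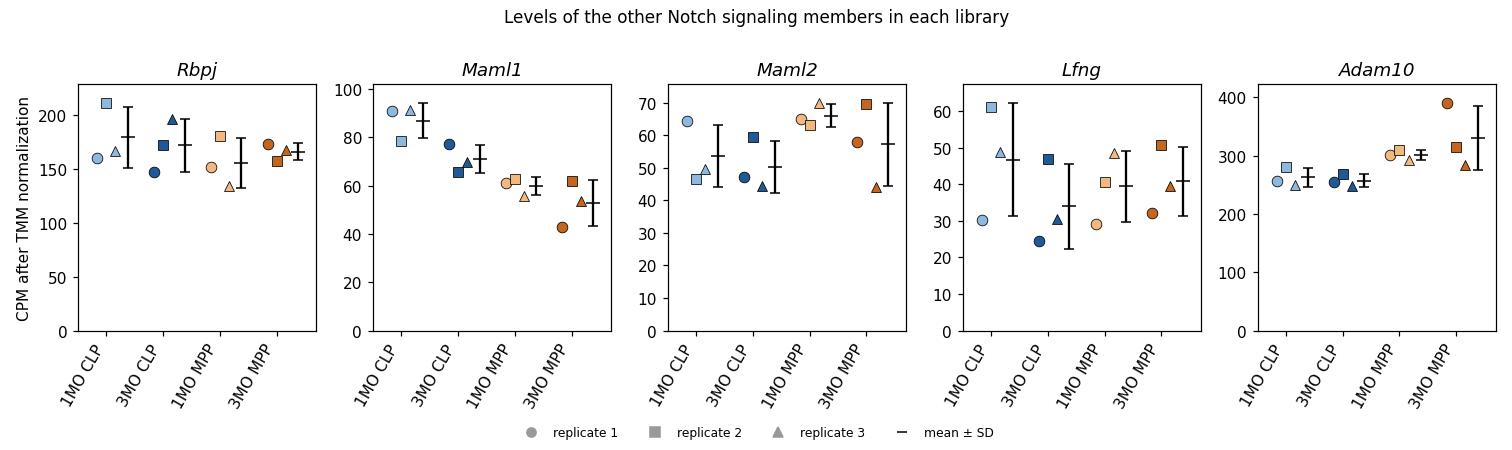
Levels of the other 5 members (CPM after TMM normalization, axes from 0 that differ between panels) in each of the 12 libraries, by group. Symbols give the replicate number and black bars the mean ± SD of 3 libraries. Adam10 was lower and Maml1 higher in CLPs than in MPPs of the same age without overlap, and neither difference passed edgeR's test.

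In each comparison, the members were read against all tested genes. With age, 0 of 9 members were called in CLPs, beside 0.0748% of all tested genes, and 0 of 9 in MPPs, beside 0.0224%. The unadjusted p was under 0.05 for none of the 9 members in either cell type, beside 5.90% and 3.48% of all genes, and DESeq2 called none. The age effect differed between the cell types for 0 of 9 members, beside 0% of all genes (429 genes, 3.21%, at an unadjusted p under 0.05, none of them a member, and 6 genes called by DESeq2). The median log2 fold change with age was -0.09 over the members and -0.01 over all genes in CLPs, and 0.02 and -0.01 in MPPs.

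Between the cell types, the groups of 4 of 9 members did not overlap at each age, Notch1 and Maml1 higher and Adam10 and Notch4 lower in CLPs, beside 24.9% of all tested genes at 1MO and 21.8% at 3MO. In MPPs, the groups of all 9 members overlapped between the ages, beside 8.57% of genes that did not.

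**Figure D4:**
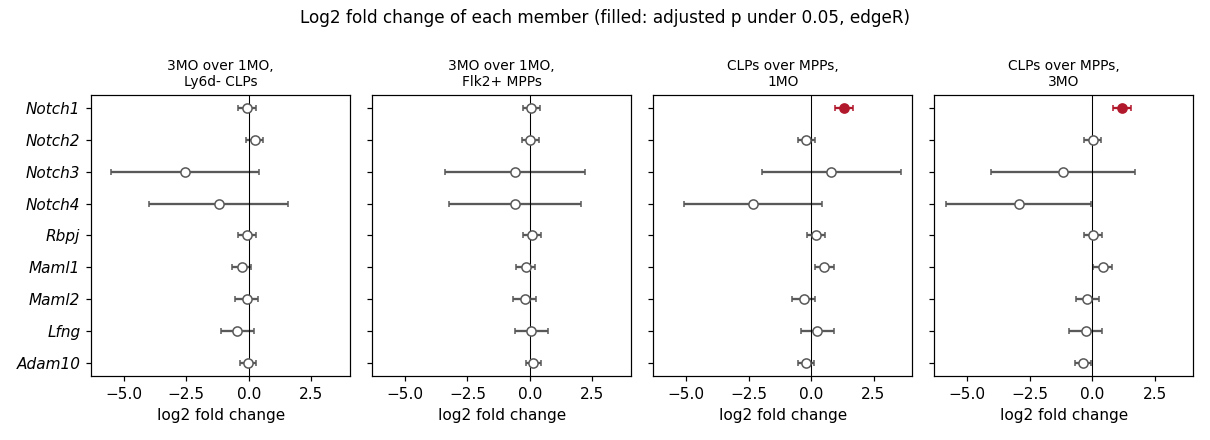
Log2 fold change of each member (points) with its 95% interval (bars) from the edgeR fit, for age in each cell type (3MO over 1MO) and for cell type at each age (CLPs over MPPs). The filled points, Notch1 at 1.31 and 1.19, are the calls, and the intervals of Notch3 and Notch4 are the widest in each panel.

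Per kb of exon union, the members ordered alike in both ages of MPPs: Adam10, Notch2 and Notch1 at the top, with overlapping libraries between neighbors, then Lfng, Rbpj, Maml1 and Maml2, then Notch4 and Notch3. In CLPs, Notch1 was above every other member without overlap, followed by Adam10 and Notch2, which overlapped at 1MO and did not at 3MO, where Notch2 was higher. The union of exons of Rbpj (12750 bases) is over double its longest transcript (5485 bases), so its place among Lfng, Maml1 and Maml2 depends on the length used. The order of the mean levels of Notch1 and Notch2 in MPPs depends on it too, and in CLPs the order of the means of Adam10 and Notch2 was the same with either length while the overlap of their libraries was not. With the longest transcript, Adam10 (54.5 to 61.1 CPM per kb) was above Notch2 (47.0 to 52.8 CPM per kb) without overlap in 1MO CLPs, and Adam10 (53.9 to 58.4) and Notch2 (56.2 to 62.4) overlapped in 3MO CLPs.

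Other genes of the pathway were read from lists by role, 67 genes in all, of which 57 were tested. None of the 57 was called for age in either cell type or for the difference between the age effects. Rag1 and Rag2, which cut DNA to assemble antigen receptor genes and which the study counts among Notch targets, were on the list of CLP markers and not among these. Rag1 stood at 266, 197 and 326 CPM in 1MO CLPs and at 79.8, 83.9 and 126 CPM in 3MO CLPs, without overlap, and was called lower with age (log2 fold change -1.44, SE 0.25; edgeR adjusted p = 0.0428). Rag2 had a log2 fold change with age in CLPs of -0.41 (SE 0.35; edgeR adjusted p = 0.923), and all 6 CLP markers had a negative one, of which Rag1 alone was called. Between the cell types, 6 of 57 were called at 1MO, 3 higher and 3 lower in CLPs, beside 5.38% of all genes tested, and 4 of 57 at 3MO, 3 higher and 1 lower, beside 6.07%. The median log2 fold change over the 57 genes was -0.01 at each age, beside -0.02 and -0.03 over all genes.

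Of the 5 ligands, 2 were tested (Dll4 and Jag2) and 0 were called. Dll3 was at 0 counts in all 12 libraries, and Dll4 was at 0 counts in all 6 CLP libraries, where a count of 0 allows up to 0.148 to 0.303 CPM (3 counts per library, counting error only). In MPPs, Dll4 had 8, 9 and 17 counts at 1MO and 15, 5 and 0 at 3MO. Jag2 was the one ligand above a trace, at 19.0 ± 7.58 CPM in 1MO CLPs, 22.7 ± 4.23 CPM in 3MO CLPs, 30.9 ± 8.86 CPM in 1MO MPPs and 22.6 ± 15.1 CPM in 3MO MPPs.

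Of the 9 genes for the proteases that process the receptor, 0 were called at either age. Of the 6 sugar-adding enzymes besides Lfng, Mfng was called at both ages. This Fringe enzyme stood at 56.9 ± 7.49 CPM in CLPs and 99.3 ± 8.09 CPM in MPPs at 1MO (log2 fold change -0.80, SE 0.18; edgeR adjusted p = 0.0152). At 3MO it stood at 64.6 ± 10.4 and 109 ± 13.3 CPM (log2 fold change -0.76, SE 0.18; edgeR adjusted p = 0.0208). Mfng was thus lower in the cells in which Notch1 was higher.

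Of the 15 genes tested for ubiquitin ligases and trafficking, Dtx4, a Deltex ubiquitin ligase, was called higher in CLPs at both ages. It stood at 156 ± 15.2 CPM in CLPs and 31.1 ± 11.7 CPM in MPPs at 1MO, 5.03-fold higher (log2 fold change 2.33, SE 0.31; edgeR adjusted p = 0.000198). At 3MO it stood at 152 ± 34.6 and 37.6 ± 14.9 CPM, 4.02-fold higher (log2 fold change 2.01, SE 0.30; edgeR adjusted p = 0.000723). Dtx3 (-0.96, edgeR adjusted p = 0.00954) and Nedd4 (-0.61, edgeR adjusted p = 0.0229), another ubiquitin ligase, were called lower in CLPs at 1MO, with log2 fold changes of -0.57 and -0.50 and edgeR adjusted p = 0.124 and 0.0611 at 3MO.

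Of the 12 corepressors, Tle3, a Groucho-family corepressor that Hes proteins recruit, was called at both ages, at 370 ± 55.0 CPM in 1MO CLPs against 199 ± 17.1 CPM in 1MO MPPs (edgeR adjusted p = 0.00779) and 355 ± 58.7 against 210 ± 43.1 CPM at 3MO (edgeR adjusted p = 0.0223). Of the 6 coactivators besides Maml1 and Maml2, 0 were called at either age.

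Of the 13 listed target genes, 7 were tested, and Tcf7, which encodes the T-lineage factor TCF-1, was called at both ages. It stood at 30.6, 24.1 and 20.8 CPM in 1MO CLPs and at 14.1, 13.6 and 16.5 CPM in 3MO CLPs, and at no more than 1.51 CPM in any MPP library. The log2 fold change (CLPs over MPPs) was 4.95 at 1MO (SE 0.71; edgeR adjusted p = 0.000403) and 3.85 at 3MO (SE 0.67; edgeR adjusted p = 0.00243). With age in CLPs, 5 of the 7 targets tested had a negative log2 fold change and 0 were called, with a median of -0.60 beside -0.01 over all genes tested. In MPPs, 5 of 7 were also negative and 0 were called, with a median of -0.25 beside -0.01. The 3 1MO CLP libraries lay above the 3 3MO ones for 2 of the 7, Tcf7 and Ccnd1, where 10.6% of all genes tested did not overlap in either direction. The log2 fold change of Tcf7 with age was -0.77 (SE 0.58; edgeR adjusted p = 0.918). Ccnd1, which encodes the cell cycle protein cyclin D1, was named here after its values were seen and stood at 67.6, 56.3 and 116 CPM in 1MO CLPs and at 32.6, 51.4 and 42.9 CPM in 3MO CLPs (log2 fold change -0.92, SE 0.27; edgeR adjusted p = 0.578). Hes1, a direct target, was at 3.28 ± 2.16 and 2.14 ± 2.42 CPM in CLPs and at 0.21 ± 0.21 and 0.80 ± 0.62 CPM in MPPs, and was named here after its values were seen (edgeR adjusted p = 0.150 at 1MO and 0.629 at 3MO).

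**Figure D5:**
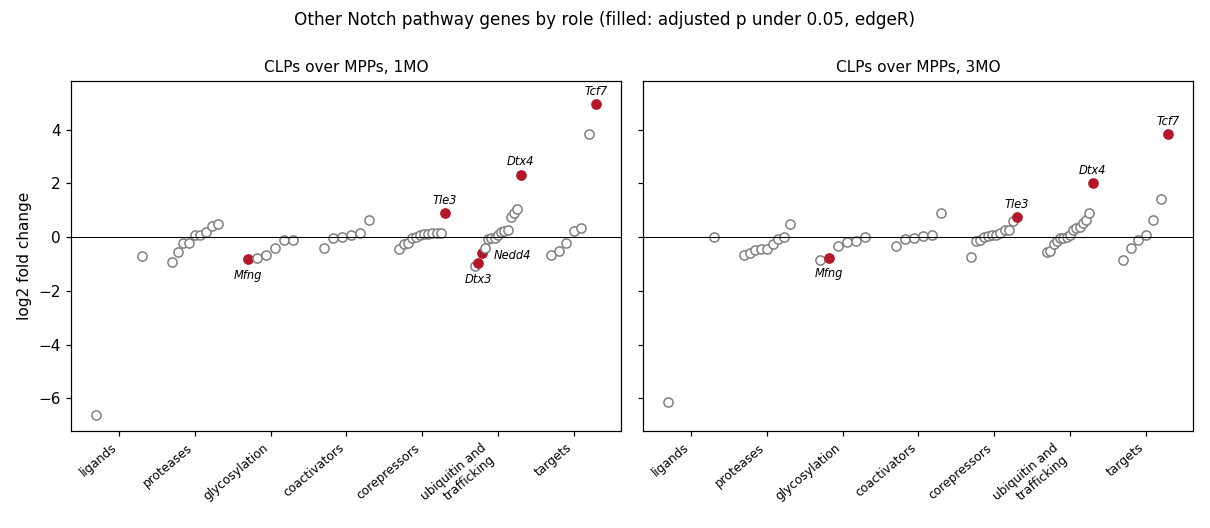
Log2 fold change (CLPs over MPPs) of the 57 other tested pathway genes, 1 point a gene, grouped by role, at 1MO (left) and 3MO (right). Filled and named points are the genes called by edgeR, with Dtx4, Tle3 and Tcf7 higher and Mfng lower in CLPs at both ages. The lowest point is Dll4, whose fitted value rests on 0 counts in all CLP libraries and is no measure of a fold.

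The genes most like each receptor were found by Pearson's r of log2 CPM over the 12 libraries, as a description of points that share libraries, depth and the split between cell types. Nearest to Notch1 were Drc7 (r = 0.985), Irf8 (r = 0.982) and Satb1 (r = 0.981). Irf8, a transcription factor of lymphoid and myeloid cells, stood at 848 ± 46.3 and 730 ± 63.8 CPM in CLPs against 71.2 ± 22.9 and 85.6 ± 12.3 CPM in MPPs, and Satb1, a chromatin organizer of lymphoid cells, at 884 ± 16.0 and 840 ± 27.0 against 514 ± 80.5 and 517 ± 31.4 CPM.

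Nearest to Notch2 were Usf3 (r = 0.864), Secisbp2l (r = 0.864) and Trerf1 (r = 0.861). Trerf1 stood at 35.5 ± 7.59 CPM in CLPs and 58.9 ± 7.65 CPM in MPPs at 1MO, and at 54.4 ± 7.29 and 57.2 ± 16.4 CPM at 3MO. Nearest to Notch3 were Lsm8 (r = 0.917), Dmap1 (r = 0.911) and Rmrp (r = 0.907), and to Notch4 Gimap1os (r = 0.905), Rad51d (r = 0.895) and Abhd8 (r = 0.883). The values of Notch3 and Notch4 rest on 0 to 153 counts a library. Group means were also low for Rmrp (0.55 to 2.05 CPM) and Gimap1os (2.42 to 7.96 CPM).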

How the data were processed

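RNA-seq of 12 libraries (3 per group) was analysed from one deposited table of estimated counts per gene. The authors made it in an nf-core pipeline (FastQC, UMI-tools, Trim Galore, SortMeRNA, STAR, Salmon). Its counts are length-scaled by that pipeline but are not divided by gene length or by depth. The submitters' processing notes name mm10. Libraries were of poly(A) RNA with a kit that keeps the strand. The sources describe the reads as paired-end in one place and as paired-end or single-end in another.

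All 12 columns matched a sample by name. Estimated counts were rounded and tested with edgeR 4.0.16 in R 4.3.3 (filterByExpr with a minimum count of 10 and a minimum total of 15, TMM, quasi-likelihood test, one fit of the 4 groups), adjusted by Benjamini-Hochberg over 13367 genes. SE is the log2 fold change over the square root of F. DESeq2 1.42.0 was an alternative. Gene positions and lengths are those of GENCODE M21 on GRCm38, which held 32235 of 32285 identifiers. Receptor shares were compared by exact permutation, and scripts were tested on simulated data. Pairs of replicates differed beyond sampling noise in each group.

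The members, gene lists and tests were chosen with earlier results of these data known. Named outside the members were pathway genes past the threshold (at most 3 per list and comparison), the 3 genes most correlated with each receptor, and listed markers. The ligands Dll3, Dll4 and Jag2, and Ccnd1, Hes1 and Maml3, fall outside this rule and were named after their values were seen. Gm26542 was named for its overlap with Maml1. The marker sums in MPPs and CLPs of myeloid granule genes (618 to 1326 CPM) and of mature T and B cell genes (15.2 to 34.8 CPM), and of 5 genes shared by both progenitors (2868 to 3753 CPM), were also read. The summed level of a list of MPP markers is not reported here.

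Replicate numbers come from the titles. Same-numbered libraries of different groups had correlations of their deviations from the group mean between -0.03 and 0.21, with 5 of 18 above 0.1, and differently numbered ones between -0.24 and 0.14, with 1 of 36 above 0.1. Cells were sorted per mouse, with 3 independent experiments stated for CLPs, and no source used here states that equal numbers share one. Pairs above 0.1 were thus more frequent among equal numbers. Since not every same-numbered pair was above 0.1, the main tests did not pair libraries. The numbers may still mark shared experiments, and results with a replicate block are given below. Alternatives were other normalization, filters and tests, a replicate block, thinning to the smallest total, fits of 6 libraries, and each library left out.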

Additional observations from a re-analysis of the deposited data

How the results depend on the processing

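Notch1 kept its call between the cell types in every fit run at both ages, and no member was called for age or for the difference between the age effects in any. DESeq2 called 2 members between the cell types at 1MO, Notch1 and Maml1 (0.55). The Notch1 share differed between the cell types by 21.1 to 22.5 percentage points over 5 other settings and by 21.3 to 23.4 points with a library left out. With the replicate block, in which same-numbered libraries were pairs, it was 22.5 points (exact sign-flip permutation p = 0.03125, the smallest possible), and the block changed no call of a member. 22 of 36 best correlations of a library with another group were with its own number. Each other group offered 3 libraries, so an even spread over them would put fewer with the own number. Leaving out a library gave -7.14 to -2.93 points for the share with age in CLPs, -0.11 to 1.85 points in MPPs and -8.04 to -3.83 points for the difference of the age effects on the share, a result added after the data were seen, with the value of -8.04 without 3MO CLP replicate 2.

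Signs of uncalled log2 fold changes turned when a library was left out, over these ranges. With age in MPPs they were -0.055 to 0.19 for Notch1, -0.13 to 0.15 for Notch2, -1.75 to 0.088 for Notch3, -2.47 to 1.06 for Notch4, -0.0015 to 0.22 for Rbpj, -0.14 to 0.23 for Lfng and -0.0085 to 0.23 for Adam10. With age in CLPs they were -0.19 to 0.0025 for Notch1, -0.17 to 0.074 for Rbpj, -0.23 to 0.061 for Maml2 and -0.065 to 0.020 for Adam10. For the difference of the age effects they were -0.24 to 0.019 for Maml1, -0.041 to 0.28 for Maml2 and -2.29 to 1.25 for Notch4, and between the cell types at 3MO -0.11 to 0.18 for Notch2 and -0.057 to 0.16 for Rbpj.

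Counts of all genes called moved more than those of members. With age in CLPs, 10 genes were called, against 46 with no filter, 4 with at least 10 counts in every library, 57 with DESeq2, 4 in a fit of 6 libraries, and 6 to 10 with a library left out (6 without 1MO CLP replicate 1 or 3MO CLP replicate 2). With age in MPPs, 3 were called, against 26, 1 and 32 under the first 3 of these, and 3 to 5 (5 without 3MO MPP replicate 2). For the difference of the age effects, 0 were called, against 6 with no filter, 6 with DESeq2, and 0 to 1 (1 without 3MO CLP replicate 3). Between the cell types, 719 were called at 1MO, against 1175 with DESeq2 and 460 to 887 (463, 473, 460 and 477 without 1MO CLP replicate 2, 1MO CLP replicate 3, 1MO MPP replicate 1 and 1MO MPP replicate 3), and 812 at 3MO, against 1371 with DESeq2, 435 in a fit of 6 libraries and 553 to 881. The causes were not tested. Notch3 and Notch4 rest on few counts, and neither gave a value with at least 10 counts required in every library, and Notch4 gave none in the fits of 6 libraries for age in CLPs and for cell type at 3MO.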
